A study of Mus musculus with 86 samples.

Results

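The regions described here are stretches of the mouse genome that carried acetylated lysine 27 of histone H3 (H3K27ac) in TGEM, peritoneal macrophages elicited with thioglycolate, and in none of the 4 other C57BL6/J macrophage populations of the study. They were the entries of the TGEM H3K27ac list that overlapped no entry, by even 1 bp, of the lists of bone marrow derived macrophages (BMDM), large peritoneal macrophages (LPM), small peritoneal macrophages (SPM) and microglia. There were 8765 of them among 35121 TGEM regions, 25.0%, and they are called TGEM-only regions. The other 26356 TGEM regions are called shared. All H3K27ac lists of the series together held 251722 regions in 13 lists.

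H3K27ac is deposited by the acetyltransferases p300 and CBP and marks active promoters and enhancers. PU.1, encoded by Spi1, is the lineage factor of macrophages and binds many of their enhancers, and H3K4me2 marks promoters and enhancers whether or not they are active. Thioglycolate in the peritoneal cavity draws in monocytes that become large, phagocytic macrophages, which differ in origin and history from the resident macrophages of that cavity.

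All 5 populations came from C57BL6/J mice, with 1 ChIP-seq library per population and mark, and 2 RNA-seq libraries per population were used. A further untreated C57BL6/J microglia RNA library, replicate 2, was not used, so the microglia libraries are replicates 1 and 3. Their titles read no treatment, although TGEM are by definition elicited with thioglycolate. BMDM were grown from marrow in L-cell conditioned medium as a source of M-CSF, then kept overnight with M-CSF, and TGEM and BMDM were fixed in the culture dish. LPM, SPM and microglia were stained, fixed and then sorted. The H3K27ac antibody was from Abcam for TGEM and BMDM, in different lots, and from Active Motif for the 3 sorted populations, so supplier and sorting cannot be told apart between these sets. The library titled PU.1 of BMDM has an antibody label that reads H3K4me2, which leaves in doubt what the BMDM PU.1 values below stand for. NOD/ShiLtJ and SPRET/EiJ mice and LPM cultured for 7 days were used only as further H3K27ac lists. The labels state no age or sex.

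The promoter windows below show where TGEM-only regions lay at genes with far more RNA in TGEM. They are the 5 windows, each of a different gene, with the largest expression differences among the genes considered. Those were genes called higher in TGEM whose window a TGEM-only region, and no shared region, overlapped. Not every chromosome was included in this choice, which was made after the values were seen. Each is the 250 bases before the annotated start, 5′ to 3′ on the gene's strand, from RefSeq on GRCm38.p6. Capitals mark matches to 7 searched motifs, whose letters are spelled out with their shares further on: a TEAD motif in Dio2, a TEAD and a GATA motif in Cd200, and an AP-1 motif in Sphk1. The Fstl1 and Htra1 windows held none of the 7.

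Dio2, chr12:90739039-90739288, minus strand: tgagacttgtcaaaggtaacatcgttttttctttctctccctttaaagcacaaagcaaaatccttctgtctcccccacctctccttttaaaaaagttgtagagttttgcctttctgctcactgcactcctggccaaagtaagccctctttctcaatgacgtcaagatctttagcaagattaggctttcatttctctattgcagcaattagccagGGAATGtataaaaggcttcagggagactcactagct
Fstl1, chr16:37776805-37777054, plus strand: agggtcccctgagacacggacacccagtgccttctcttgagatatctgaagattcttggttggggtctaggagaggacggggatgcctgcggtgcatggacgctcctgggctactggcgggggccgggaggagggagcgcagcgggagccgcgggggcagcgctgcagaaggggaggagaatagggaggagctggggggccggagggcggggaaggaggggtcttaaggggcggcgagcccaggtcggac
Cd200, chr16:45409054-45409303, minus strand: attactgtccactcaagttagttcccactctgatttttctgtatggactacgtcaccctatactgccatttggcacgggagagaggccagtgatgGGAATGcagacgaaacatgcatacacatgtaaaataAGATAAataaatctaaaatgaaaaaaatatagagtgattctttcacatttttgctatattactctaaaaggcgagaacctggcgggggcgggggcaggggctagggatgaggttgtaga
Htra1, chr7:130935953-130936202, plus strand: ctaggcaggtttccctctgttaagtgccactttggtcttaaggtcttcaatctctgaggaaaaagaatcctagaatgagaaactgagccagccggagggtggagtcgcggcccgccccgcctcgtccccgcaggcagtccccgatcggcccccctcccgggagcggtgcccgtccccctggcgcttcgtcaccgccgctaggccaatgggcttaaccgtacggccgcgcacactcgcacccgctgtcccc
Sphk1, chr11:116531587-116531836, plus strand: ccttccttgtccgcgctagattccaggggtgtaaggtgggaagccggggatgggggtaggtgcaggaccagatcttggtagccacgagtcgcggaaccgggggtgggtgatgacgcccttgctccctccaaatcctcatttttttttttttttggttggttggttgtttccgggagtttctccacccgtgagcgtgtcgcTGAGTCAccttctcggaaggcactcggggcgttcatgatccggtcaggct

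The regions over these windows ranged from 500 bp with a score of 14.1 at Fstl1 to 2915 bp with a score of 250.2 at Cd200. Each overlapped 1 TGEM H3K4me2 region. The Cd200 region held 2 TGEM PU.1 peaks and the Dio2 region 1, while those of Fstl1, Htra1 and Sphk1 held none, and no PU.1 peak lay on any of the 5 windows themselves. Dio2 encodes the deiodinase that activates thyroid hormone, Fstl1 a secreted glycoprotein, Cd200 the ligand of the inhibitory receptor CD200R, Htra1 a secreted serine protease and Sphk1 a sphingosine kinase.

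Most TGEM-only regions were narrow and weak. The rule chose regions on this readout, so their sizes and scores are given as a description without a test. Their width had a median of 627 bp (interquartile range 500 to 965), and 4294 of them, 49.0%, had the smallest width in the list, 500 bp. The widest spanned 14559 bp. Shared regions had a median width of 1749 bp, and TGEM-only regions covered 7.88 Mb against 69.8 Mb of shared ones. The score, a number that the authors' peak caller gave each region, had a median of 17.3 (interquartile range 12.5 to 31.4) in TGEM-only and 94.1 in shared regions. Regions shared with BMDM alone, 4491 in all, lay between, with a median width of 1188 bp and a median score of 45.5. Narrow width was not particular to TGEM. Regions found in a single list had a median width of 500 bp in BMDM, LPM and microglia, against 1263, 1415 and 1049 bp for their shared regions. In SPM it was 638 against 1617 bp.

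The share of TGEM-only regions fell steadily with score. In the lowest quintile of scores in the whole TGEM list 59.7% of regions were TGEM-only, in the next 41.2%, then 17.1% and 6.00%, and in the highest quintile 1.66%, or 117 regions. By width it was 58.1% at 500 bp and 2.20% in the widest of 5 width classes. Score and width come from the readout the rule used. In the lowest quintile TGEM-only and shared regions had the same median width, 500 bp. At the edge of the rule, 265 members lay within 100 bp of a region of another list, 3 of them directly abutting it, and 288 shared regions were shared through 100 bp or less. Those just inside and just outside had the same median width, 500 bp, and the same median score, 14.9. For 1939 members, 22.1%, another list had a region within 1000 bp.

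**Figure D1:**
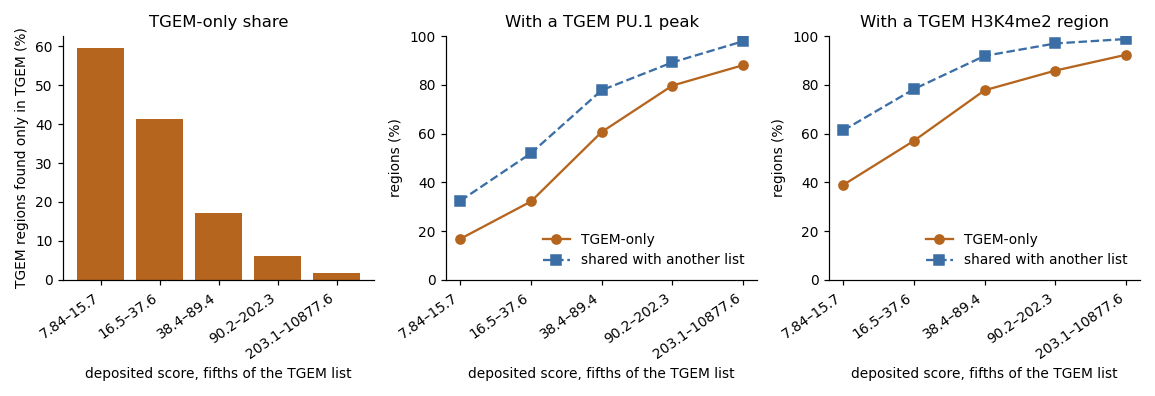
Left, the percentage of TGEM H3K27ac regions that were TGEM-only in each quintile of the deposited score (score ranges on the horizontal axis); middle and right, the percentage of TGEM-only (circles) and shared (squares) regions that held a TGEM PU.1 peak or H3K4me2 region. TGEM-only regions fell from 59.7% to 1.66% of the list, and within each quintile the TGEM-only line lay below the shared line.

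The same rule applied to each population in turn gave 8306 BMDM-only regions of 35713 (23.3%), 5673 SPM-only of 29659 (19.1%), 2827 microglia-only of 15091 (18.7%) and 2259 LPM-only of 24422 (9.25%). TGEM and BMDM, the populations with the longest lists and the Abcam antibody, thus had the largest shares. Their part in that was not tested. Among TGEM regions, 61.6% overlapped the BMDM list, 54.9% the SPM list, 48.4% the LPM list and 28.1% the microglia list. Compared with the BMDM list alone, made with an antibody of the same supplier, 13496 TGEM regions had no overlap, a comparison added after the data were seen.

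PU.1 was listed in a minority of TGEM-only regions and in most shared regions. A TGEM PU.1 peak lay in 2807 TGEM-only regions, 32.0% (exact 95% confidence interval 31.0 to 33.0), in 60.5% of regions shared with BMDM alone, in 77.0% of all shared regions and in 92.7% of those found in all 5 lists. A TGEM H3K4me2 region overlapped 4680 TGEM-only regions, 53.4% (52.3 to 54.4), and 89.6% of shared ones. These intervals cover counting error only, because each population had 1 library per mark and regions are not replicates. The libraries for PU.1 and H3K4me2 did not enter the rule, but they came from the same cells, and H3K4me2 in TGEM and BMDM was measured on chromatin cut with MNase rather than cross-linked and sonicated.

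Part of the gap went with score. Within the lowest quintile of scores 16.8% of TGEM-only and 32.4% of shared regions held a PU.1 peak, in the middle quintile 60.6% and 77.8%, and in the highest quintile 88.0% and 97.8%. TGEM-only regions stayed below shared regions of the same quintile in all 5 quintiles, for PU.1 and for H3K4me2 alike. Both marks together occupied 2191 TGEM-only regions (25.0%), whose median width was 1022 bp. H3K4me2 without PU.1 occupied 2489 (28.4%), PU.1 without H3K4me2 616 (7.03%), and 3469 (39.6%) held neither. The regions with neither had a median width of 500 bp and a median score of 14.1. Among shared regions 6.18% held neither.

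Most PU.1 peaks inside TGEM-only regions were also listed in another population. There were 3108 of them, with 281 regions holding 2 or more and none above 4. Of these peaks 63.3% overlapped a PU.1 peak of BMDM, 61.0% one of SPM, 48.1% one of LPM and 29.0% one of microglia. All 4 other lists held 20.4% of them, against 40.6% of the PU.1 peaks in shared regions and 32.2% of the whole TGEM PU.1 list. No other list held 613 peaks, 19.7%, against 9.45% in shared regions and 11.0% in the whole list. Their median score stood at percentile 50.5 of the TGEM PU.1 list, and that of peaks in shared regions at percentile 66.4.

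Seen from the regions, PU.1 of BMDM lay in 26.5% of TGEM-only regions, PU.1 of SPM in 25.0%, of LPM in 19.9% and of microglia in 11.8%. H3K4me2 was listed there in BMDM for 41.4%, in LPM for 25.1%, in microglia for 19.1% and in SPM for 12.3%. The lists differed in length, from 44869 PU.1 peaks in microglia to 89648 in SPM, so the order of these shares is not an order of occupancy. BMDM-only regions held a BMDM PU.1 peak in 20.52% and a BMDM H3K4me2 region in 41.0%. In LPM, SPM and microglia the population's own PU.1 lay in 44.4%, 37.8% and 29.0% of the regions found only there, against 78.2%, 80.1% and 58.9% of their shared regions. The lower PU.1 share of regions in a single list was thus seen in each of the 5 populations.

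**Figure D2:**
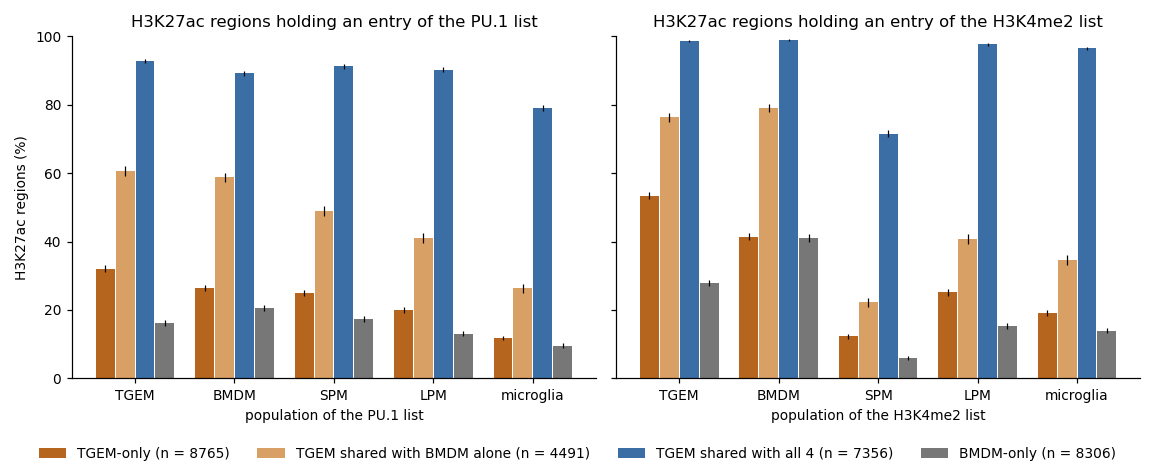
Percentage of H3K27ac regions that held an entry of each population's PU.1 list (left) or H3K4me2 list (right), for TGEM-only regions, TGEM regions shared with BMDM alone or with all 4 others, and BMDM-only regions; bars are shares and error bars exact 95% binomial intervals. TGEM-only regions reached 32.0% for TGEM PU.1 and 53.4% for TGEM H3K4me2.

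H3K27ac lists that the rule did not use seldom held the TGEM-only regions. LPM of SPRET/EiJ mice held 7.37% of them, microglia of NOD/ShiLtJ 3.05%, microglia of SPRET/EiJ 2.04% and LPM of NOD/ShiLtJ 1.70%. The rule had already removed regions listed in LPM or microglia of C57BL6/J, which lowers these shares. Regions shared with BMDM alone, which lack those lists too, were held in 12.3%, 6.10%, 4.48% and 2.92%, and all shared regions in 57.3%, 31.8%, 29.6% and 42.4%. LPM kept for 7 days in 4 ng/ml M-CSF with DMSO, ATRA, TGFB1 or the TGFB1 vehicle held between 0.331% and 1.83%. They held 3.58% to 10.4% of regions shared with BMDM alone and 11.8% to 23.2% of all shared regions. These lists were short, with 3963 to 11973 entries, and the part of their length in these shares was not tested. Those 4 lists had no entry centred within 1 kb of a start, so they can only speak for distal regions.

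TGEM-only regions lay mainly away from promoters. The region's centre was within 1 kb of a transcription start in 573 cases (6.54%), within a gene in 47.8% and between genes in 45.7%. Of shared regions 31.1% were at a promoter. The median distance from region centre to the nearest start was 22.8 kb, against 8.62 kb for shared regions and 20.7 kb for those shared with BMDM alone. BMDM-only regions had a median distance of 23.0 kb but fewer at a promoter, 2.65%.

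Windows before 538 RefSeq starts, of 484 genes, were overlapped by a TGEM-only and by no shared region. Motifs were searched on both strands, and no motif's letters contain another's. GAGGAAG, the core of the PU.1 motif, was in 10.6% of these windows and in 10.6% of all 32841. TGANTCA, bound by AP-1, was in 7.81% (42 windows) against 6.75% of all and 4.37% of windows under shared regions. The MiT/TFE motif TCACGTG was in 5.20%, 3.13% and 5.23% of the same 3 sets, and its variant TCATGTG in 2.42%, 3.25% and 1.81%. The TEAD motif GGAATG was in 13.2%, 12.6% and 9.58%. The GATA factor motif AGATAA was in 7.62%, 9.99% and 5.11%, and the motif TTGCNCA of C/EBP in 10.0%, 11.8% and 10.7%. Base composition differed too, with median GC of 57.2%, 52.4% and 60.4%. A TGEM PU.1 peak overlapped 30.5% of the windows under TGEM-only regions, 20.46% of all and 51.4% of those under shared regions. Of the 334 of these genes that could be tested for expression, 58 were higher in TGEM than in the other populations (17.4%) and 57 lower (17.1%), where 12.7% and 14.8% of all tested genes were called.

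Expression was measured by RNA-seq as reads per gene scaled to 10000000 mapped reads, in 2 libraries per population. The first library of each population was of polyA RNA; the titles give the second as Ribozero, with ribosomal RNA removed, for LPM, SPM and microglia and name no selection for TGEM and BMDM. RNA selection therefore cannot be fully told apart from population in the second libraries, and the polyA value is printed first throughout. The TGEM libraries held 27003104 and 4027443 mapped reads, and the other 8 between 2886220 and 21926796. Nothing in the labels says that the 2 libraries of a population came from separate animals, so p-values measure the spread between these libraries, which may be technical. The libraries also differed in sex-linked RNA, with Xist at 1.48 and 1738 in the TGEM libraries. Levels of cell type markers were also summed. Their lists were chosen with earlier results of these data known, so the sums describe the libraries and are no independent check of the labels. The 12 core macrophage markers summed to 143610 and 159070 in TGEM, above microglia (at most 104060). These sums were below every library of SPM (161960 or more), LPM (164450 or more) and BMDM (176020 or more). The summed level of 16 markers of elicited and lipid-laden macrophages was 546180 and 561240, above the highest of the other libraries at 476800. Markers of LPM summed to at most 1403 in TGEM against 98200 or more in LPM.

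Each TGEM-only region was assigned to the nearest start within 100 kb, which placed 7733 regions (88.2%) at 4318 genes, 4090 of them with enough signal to test. In all, 78.3% of the 4318 were also nearest to a shared region. A gene was called higher or lower at an adjusted p under 0.05 from limma with a log2 fold of at least 1 in size. Against the mean of the other 4 populations, 750 nearest genes were higher (18.3%) and 764 lower (18.7%), where 12.7% and 14.8% of all 19313 tested genes were called higher and lower. The median log2 fold of the nearest genes, −0.12, was close to that of all tested genes, −0.11. Genes nearest to shared regions and to no TGEM-only region were higher in 13.03% and lower in 16.8%. The 828 tested genes nearest to a TGEM-only region and to no shared region were higher in 12.4% and lower in 11.8%. Both shares were below those of all tested genes, so the excess was not seen where no shared region was also nearest. The near balance of both directions rested on having both TGEM libraries. Without TGEM replicate 2, the shallower library, 10.7% of nearest genes were higher and 17.4% lower (6.22% and 12.8% of all), and without TGEM replicate 1, 15.5% were higher and 11.6% lower (12.1% and 9.52% of all). It also leaned higher for genes with a start within 20 kb (21.3% and 16.0%) and for regions at or above the median score (25.4% and 14.2%). Fewer cells of a type and less RNA per cell cannot be told apart in these bulk samples.

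Genes with several TGEM-only regions were more often called in both directions, with the larger rise for higher calls. Of the 2516 tested genes nearest to exactly 1, 15.6% were higher and 17.97% lower; of the 1353 nearest to 2 to 4, 21.3% and 19.4%; and of the 221 nearest to 5 or more, 31.7% (70 genes) and 22.6% (50 genes). The 295 tested genes nearest to 5 or more shared regions and to no TGEM-only region were higher in 8.47% and lower in 38.3%. Shares by number of regions were not repeated with a library left out. The 98 genes nearest to a TGEM-only region from the highest quintile of scores included 93 tested, of which 27 were higher (29.0%) and 9 lower (9.68%), with a median log2 fold of 0.51, so their higher share was also above that of all genes while their lower share was below it. Genes with a PU.1-bound TGEM-only region were higher in 18.9% and lower in 18.6%, and those whose TGEM-only regions all lacked PU.1 in 17.9% and 18.7%. Against BMDM the same sets were higher in 4.35% and 3.31% and lower in 4.94% and 6.16%.

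Against BMDM, 155 nearest genes were higher (3.79%) and 229 lower (5.60%), where 2.44% and 3.5% of all tested genes were called. The whole table leaned lower in this contrast, with a median log2 fold of −0.20 over genes with a mean of at least 50. Higher calls made up 41.2% of all calls, 52.1% after quantile normalization (676 higher, 621 lower) and 54.7% with DESeq2 (1286 and 1064). Genes nearest to 5 or more TGEM-only regions were higher in 9.50% (21 genes) and lower in 5.43% (12 genes). Genes nearest to 5 or more BMDM-only regions were higher in TGEM in 3.49% and lower in 19.7%. Genes nearest to a TGEM-only region and to no shared region were higher in 3.99% and lower in 2.66%. Genes near a TGEM-only and no BMDM-only region were higher in 4.79% and lower in 3.464%, and those near a BMDM-only and no TGEM-only region in 1.65% and 7.08%. The higher count over all genes, 472, was 94 without BMDM replicate 1, 66 without BMDM replicate 2, 124 and 154 without LPM replicates 1 and 2, 189 and 221 without SPM replicates 1 and 2, and 129 without TGEM replicate 2. The lower count, 675, was 164 and 41 without the BMDM replicates, 120 and 150 without those of LPM, 164 and 191 without those of SPM, and 290 and 373 without those of TGEM. Without microglia replicates 1 and 3 the counts fell less, to 403 and 422 higher and 461 and 522 lower. The higher count over all genes rose without TGEM replicate 1. The shares of nearest genes called higher or lower were below those of the full fit whichever library was left out. The counts against BMDM thus depend on which libraries are included.

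**Figure D3:**
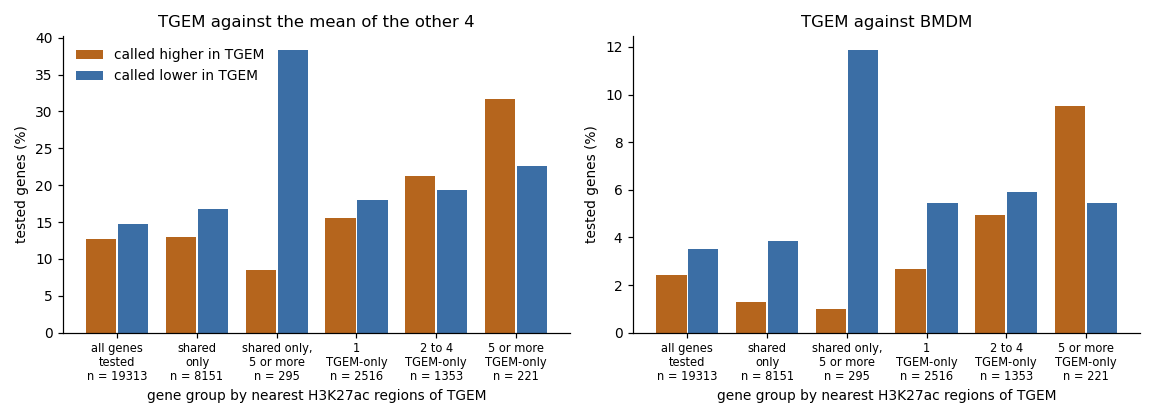
Percentage of tested genes called higher (left bar) or lower (right bar) in TGEM by limma, against the mean of the other 4 populations and against BMDM, for all genes and for genes grouped by how many TGEM-only or shared regions lay nearest to them; n is the number of tested genes. The higher share was 31.7% for 5 or more TGEM-only regions and 8.47% for 5 or more shared regions without a TGEM-only one.

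The widest TGEM-only region, which also had the highest score, lay 32.1 kb from the start of Cd200, at chr16:45369629-45384187 (14559 bp, score 1059.5). It held 3 TGEM PU.1 peaks, 1 BMDM peak and none of LPM, SPM or microglia. In all, 5 TGEM-only regions had Cd200 as their nearest gene, including the one over the promoter window printed above. Cd200 RNA was 2699 and 3004 in TGEM, 47.9 and 360.1 in BMDM, 41.6 and 19.5 in SPM, 2.67 and 2.56 in LPM, and 0 in both microglia libraries. Both TGEM libraries thus stood above the other 8. The log2 fold was 8.03 ± 0.67 (SE) against the other populations (limma adjusted p = 5.9e-05) and 4.42 ± 0.84 against BMDM (adjusted p = 0.0188). The call against BMDM was lost when any single library other than BMDM replicate 2 or SPM replicate 2 was left out, with adjusted p from 0.0553 to 0.119.

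Mamdc2 had 10 TGEM-only regions, 6 of them with PU.1, and the region next in score to that of Cd200 covered its start. That region, chr19:23443281-23453833, was 10553 bp wide with a score of 885.4 and held 4 TGEM PU.1 peaks, beside 2 of BMDM, 2 of LPM, 3 of SPM and none of microglia. Its neighbours at chr19:23489159-23495028 and chr19:23455369-23459253 had scores of 383.5 and 184.3. Mamdc2 RNA was 5415 and 5304 in TGEM, 425.5 and 493.8 in BMDM, and between 1.43 and 77.0 in the 6 libraries of the sorted populations. The groups did not overlap, and the log2 folds were 6.86 ± 0.30 (adjusted p = 1.09e-05) and 3.54 ± 0.38 against BMDM (adjusted p = 0.00206).

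Gadd45g, a stress-inducible growth arrest gene, had 11 TGEM-only regions within 100 kb, all downstream of the gene and 6 of them with PU.1. The strongest were chr13:51891407-51893240 (score 179.6), chr13:51907578-51910021 (149.8) and chr13:51851979-51854069 (140.4). Its RNA was 1696 and 583.5 in TGEM, 42.4 and 38.7 in BMDM, 263.8 and 74.9 in microglia, and at most 20.8 in SPM and LPM. TGEM was above every other library although its own 2 differed, with log2 folds of 5.19 ± 0.41 (adjusted p = 4.77e-05) and 4.59 ± 0.52 (adjusted p = 0.00263).

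Sdc1, the heparan sulfate proteoglycan syndecan-1, had 5 TGEM-only regions, of which chr12:8808910-8814210 (5301 bp, score 323.1) was the only one with PU.1. Sdc1 RNA was 5502 and 4184 in TGEM, 392.2 and 423 in BMDM and 0.717 to 79.7 elsewhere. The log2 fold was 7.36 ± 0.35 (adjusted p = 1.09e-05), and 3.55 ± 0.45 against BMDM (adjusted p = 0.00402), which became 0.0682 without BMDM replicate 2. Mfge8, a bridge between apoptotic cells and phagocytes, had 2 such regions upstream, both with PU.1. The wider, chr7:79188490-79195310, spanned 6821 bp with a score of 392.1 and overlapped 4 BMDM PU.1 peaks while absent from the BMDM H3K27ac list. Mfge8 RNA was 24383 and 20470 in TGEM, 1474 and 2707 in BMDM and 28.1 to 599.6 in the sorted populations. It was higher by 5.99 ± 0.50 (adjusted p = 5.9e-05) and by 3.48 ± 0.63 against BMDM (adjusted p = 0.0158), the latter lost without any one of the TGEM or LPM or SPM libraries or BMDM replicate 1 (adjusted p 0.056 to 0.122).

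Epas1, which encodes the hypoxia-inducible factor HIF-2α, had 2 weak TGEM-only regions within the gene. Its RNA was 2336 and 4810 in TGEM, 57.01 and 58.7 in BMDM, 464.3 and 187.1 in SPM, 612.9 and 497.2 in LPM, and 2.15 and 4.68 in microglia. TGEM was highest, with log2 folds of 5.39 ± 0.42 (adjusted p = 4.75e-05) and 5.83 ± 0.54 against BMDM (adjusted p = 0.00121). Dio2 and Bcat1 had 2 TGEM-only regions each and no shared region. Dio2 RNA was 1162 and 2930 in TGEM and 100.8 and 456.1 in BMDM, with 0.668 in 1 LPM library and 0 in the 5 others. It was higher than in the other populations by 8.82 ± 0.65 (adjusted p = 4.1e-05), and by 3.10 ± 0.82 against BMDM, short of the threshold (adjusted p = 0.0578), which it passed with a pseudocount of 10 (0.0271), after quantile normalization (0.0395) and with edgeR on the recovered reads (0.00075). Bcat1, a branched-chain aminotransferase, had the region next in score, chr6:145000602-145011318 (10717 bp, score 662.6, 2 PU.1 peaks). Its RNA was low, at 67.8 and 79.5 in TGEM and 0 to 30.8 elsewhere, with a log2 fold of 3.94 ± 0.71 (adjusted p = 0.00291, and 0.0521 without TGEM replicate 1).

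A strong TGEM-only region did not always lie near a gene with more RNA in TGEM. Of the genes nearest to the next regions by score, Slc39a11 (621.9), Hmgn2 (540.3), Trak1 (527.0) and Mkl2 (483.1) were not called in either contrast, with log2 folds from 0.03 to 0.92 against the other populations. Under other settings 3 of these were called higher: Hmgn2 after quantile normalization, with edgeR or DESeq2 and without BMDM replicate 2 (adjusted p 0.0266 to 0.0430), Slc39a11 after quantile normalization and without microglia replicate 1 or LPM replicate 2 (0.0185 to 0.0489), and Mkl2 without TGEM replicate 1 (0.0427). Plcl2 (473.7) and Gm19395 (465.0) were lower, by −1.20 and −2.42. The call of Gm19395 was lost without TGEM replicate 1, with a log2 fold of −2.04. The region of score 516.8 nearest to G530011O06Rik, chrX:169993695-169995024, was the only one of these 10 without a TGEM PU.1 peak and, with the Trak1 region, without a TGEM H3K4me2 region. The nearest start need not be that of the gene a region acts on.

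The genes with the most TGEM-only regions moved in both directions. Foxp1, Mkl2, Gm19510 and Mir7661 had 13 each, Lpp, Zfp704, Cmip and Bach2 12, and Chst11 and Gadd45g 11. Lpp, a focal adhesion protein, had 12 TGEM-only regions within 100 kb, 8 with PU.1, yet its RNA was lowest in TGEM, at 332.9 and 600.9 against 1060 and 1202 in BMDM and 1772 to 5051 in the sorted populations. It was lower by −2.43 ± 0.26 (adjusted p = 0.000218), and by −1.33 ± 0.33 against BMDM (adjusted p = 0.0477), a call lost without any one of the 10 libraries (adjusted p 0.0573 to 0.274). Foxp1, a forkhead repressor, was 1138 and 1289 in TGEM, 2140 and 2389 in BMDM and 3508 to 9043 elsewhere, lower by −1.88 ± 0.32 (adjusted p = 0.00212). Bach2, a transcriptional repressor, was 76.7 and 221 in TGEM, above the 40.1 and 42.9 of BMDM and below the 536.8 to 1788 of the sorted populations. It was lower by −1.83 ± 0.35 (adjusted p = 0.00407, lost without TGEM replicate 1). Chst11, a chondroitin sulfotransferase, was higher by 2.44 ± 0.50 (adjusted p = 0.00585, lost without either TGEM replicate), while Mkl2, Zfp704, Cmip, Gm19510 and Mir7661 were not called, apart from Mkl2 as above and Cmip, lower without TGEM replicate 2 (0.043).

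**Figure D4:**
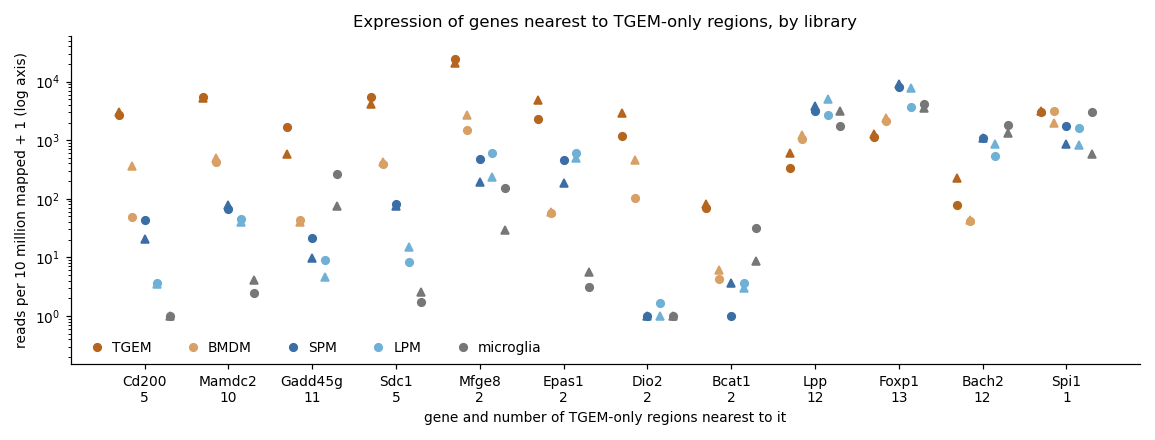
RNA level of 12 genes, as reads per 10000000 mapped reads plus 1 on a log axis, in each of 10 libraries (circles, replicate 1; triangles, the second library of the population); the number under each gene is its count of nearest TGEM-only regions within 100 kb. TGEM lies above all other libraries for Cd200 to Bcat1 and below them for Lpp and Foxp1.

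Other genes with large differences had small or few regions. Atp6v0d2, a subunit of the vacuolar proton pump, had 5 TGEM-only regions of at most 855 bp with scores of 8.63 to 22.7. Its RNA was 18175 and 17500 in TGEM, 6404 and 4171 in BMDM and 0.512 to 23.4 in the sorted populations, a log2 fold of 8.96 ± 0.61 (adjusted p = 3.37e-05). Gpnmb, a lysosomal glycoprotein, had 2 regions and a log2 fold of 9.91 ± 0.99, and Mmp12, macrophage elastase, had 1 region and 10.62 ± 0.81. None of these 3 differed from BMDM beyond the threshold, with adjusted p of 0.212, 0.491 and 0.386, except that Atp6v0d2 passed with DESeq2 on recovered reads (0.0218). Cdkn1c, a cyclin-dependent kinase inhibitor, had 4 regions without PU.1 and was 5267 and 2493 in TGEM against 15.4 to 167.4 elsewhere, higher by 6.35 ± 0.31 and by 5.31 ± 0.39 against BMDM (adjusted p = 0.00062).

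Ccdc80, Fstl1, Htra1, Serpinh1, C1s1 and Sfrp5, which encode secreted or matrix-related proteins, were also among the 15 largest increases in at least 1 contrast. Fstl1 RNA was 1175 and 1818 in TGEM and at most 31.9 elsewhere, Htra1 411.8 and 298 against at most 11.4, and Serpinh1 277.4 and 379.9 against at most 13.2. Beside these stood markers of fibroblasts. Of 12 such markers 9 were higher in TGEM and none lower, where 12.7% and 14.8% of all tested genes were called. Their summed level was 3494 to 5016 in TGEM against 18.03 to 392.8 in the other libraries, and none was at 0 in both TGEM libraries. Of the 12, Pdgfrb alone was nearest to a TGEM-only region. Of 11 measured mesothelial markers 9 were higher, with a summed level of 298 to 380 against 8.21 to 828.5, and Msln and Upk1b each had a TGEM-only region. The part of such cells in the regions or in the RNA was not tested.

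Falls at nearest genes were as deep as some of the increases. Nt5e, the ecto-enzyme CD73, had 4 TGEM-only regions, but its RNA was 2.96 and 0 in TGEM, 2.74 and 7.92 in BMDM, 11.5 and 28.1 in microglia, 693 and 528.9 in SPM, and 1741 and 1307 in LPM. It was lower by −5.65 ± 0.61 (adjusted p = 0.000218), without a call against BMDM. Rad51b, a homologous recombination factor with 1 region, was lower by −5.68 ± 0.33, and Pvt1, a long noncoding RNA with 3, by −5.37 ± 0.40. Against BMDM the deepest falls were those of Slc40a1, the iron exporter ferroportin, at −6.65 ± 0.87 (adjusted p = 0.0948 without BMDM replicate 2), and Ccr3, the eotaxin receptor, at −6.20 ± 0.61.

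Spi1 itself had 1 TGEM-only region, 993 bp wide with a score of 26.7 and no PU.1 peak, 6.53 kb from its start. Its RNA was 3017 and 3151 in TGEM, 3117 and 1934 in BMDM, 2980 and 569.8 in microglia, 1764 and 861.4 in SPM, and 1639 and 824.1 in LPM. TGEM overlapped BMDM, and microglia replicate 1 came close. The log2 fold of 1.07 ± 0.40 missed the threshold (adjusted p = 0.0678); it passed after quantile normalization (0.0334), with edgeR (0.0152) or DESeq2 (0.00316) on the recovered reads, and without microglia replicate 1 (0.0202).

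Lists of genes with a role in elicited macrophages were then read for members that had a TGEM-only region nearby; the lists were chosen with earlier results known. Over all gene symbols 17.9% were nearest to such a region, as were 4090 of the 19313 tested genes. Of the genes nearest to a shared TGEM region, 28.8% were also nearest to a TGEM-only region. Of all tested genes 12.7% were called higher and 14.8% lower than in the other populations, and 2.44% and 3.5% against BMDM. Genes of the lysosome and its proton pump moved together. Of 30 members 27 were higher than in the other populations and none lower (median log2 fold 2.60, all tested genes −0.11), and 16 had a TGEM-only region, 15 of them higher. Among these, Ctsb, the protease cathepsin B, was higher by 3.37, Lipa, the lysosomal acid lipase, by 3.55 and Npc2, which carries cholesterol out of the lysosome, by 2.66, while Lamp2 was not called. With 1 library left out, 24 to 27 were higher. Against BMDM 4 of 30 were higher and none lower, 1 of them with a region, and with any 1 library left out at most 2 were higher.

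Of 24 genes of lipid and sterol handling 15 were higher and 2 lower (median 2.27), and 14 had 40 TGEM-only regions between them, with 12 of the 14 higher and 1 lower. Without TGEM replicate 2, the shallower library, 11 of the 24 and 8 of the 14 were higher. Fabp5, a fatty acid binding protein, was 13270 and 5679 in TGEM against 1.561 to 1689 elsewhere, higher by 6.09 and by 2.76 against BMDM (adjusted p = 0.0128), the latter kept only without BMDM replicate 2 or either microglia library (adjusted p up to 0.100 otherwise). Cd36, the scavenger receptor, had 5 regions, one at its start, and Lpl, lipoprotein lipase, had 7, none of them with PU.1. Both were higher than in the other populations, by 3.90 and 3.04, yet stood within or below the BMDM range, Cd36 at 42189 and 23797 against 56994 and 30699 and Lpl at 23616 and 38488 against 95788 and 85449. Abca1, the cholesterol exporter, had 2 regions, both with PU.1, and was lower, at 871 and 1371 against 3917 or more elsewhere (−2.46, adjusted p = 0.0019, and −2.47 against BMDM). The first call was lost without TGEM replicate 1, and the second without any 1 library other than microglia replicate 3.

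Beside the 12.7% higher and 14.8% lower of all tested genes, 17 of 25 matrix genes were higher and 2 lower (median 3.04). Of the 25, 12 had a region, 9 of them higher and Thbs1 lower. They included Spp1 (osteopontin, 6.59), Mmp19 (3.04) and Tgm2 (transglutaminase 2, 3.07), and the fibroblast marker values given above stand beside this list too. Of 20 integrin and adhesion genes 8 were higher and 3 lower, and the 8 were among 13 with a region; without TGEM replicate 2, 4 were higher. Itgax, the integrin CD11c, rose most, from at most 1175 elsewhere to 5011 and 8196 (5.90, and 2.45 against BMDM, a call lost without any 1 library other than those of SPM, with adjusted p from 0.0783 to 0.219). Of 21 tested genes of alternative activation and repair 8 were higher and 3 lower, and 13 of the list had a region. Il1rn, the interleukin-1 receptor antagonist, was higher by 6.17 and Vegfa by 5.30. Arg1, arginase 1, was 263.7 and 188.7 in TGEM against 8.67 and 9.32 in BMDM (4.49, adjusted p = 0.00062) but not called against the mean of all 4.

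The other lists were mixed or small, where 12.7% of all tested genes were called higher and 14.8% lower. In the hypoxia and glycolysis list 7 of 20 tested were higher and 1 lower, with 15 members having a region and 5 of those higher. Of 14 NRF2 antioxidant genes 11 were higher and none lower, but 5 had a region, among them Slc7a11, the cystine transporter, with 9 within 100 kb and a log2 fold of 3.42. The MiT/TFE list had 7 higher and 2 lower of 14, and its 8 members with a region included Mitf, lower by −1.51. The osteoclast list had 5 higher and 2 lower of 13, the inflammatory cytokine list 4 and 1 of 20, and the AP-1 list 4 and 4 of 18, with 2, 3 and 2 higher genes among those with a region. Of 12 core macrophage genes 8 had a TGEM-only region, 18 regions in all, and of those 8 none was higher and 2 lower. Of 16 elicited and lipid-laden macrophage markers 13 were higher and none lower, and 7 had a region, 6 of them higher.

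Markers of other cells were also counted for a nearby TGEM-only region, which 17.9% of all gene symbols had. These lists are short, so 1 gene moves a share far, and no list was tested against that share. Near it were the markers of microglia (2 of 12), mesothelium (2 of 12), mast cells (1 of 8) and neutrophils (2 of 8). Below that share were the markers of LPM (1 of 12), fibroblasts (1 of 12) and B cells (none of 8). Above it were those of SPM and dendritic cells (5 of 12), eosinophils (3 of 7), T and NK cells (3 of 8) and endothelium. Of 7 endothelial markers 4 had one, with Kdr and Vwf higher and Pecam1 lower, and the summed endothelial level was 614 and 2657 in TGEM against 90.8 to 641.0 elsewhere.

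**Figure D5:**
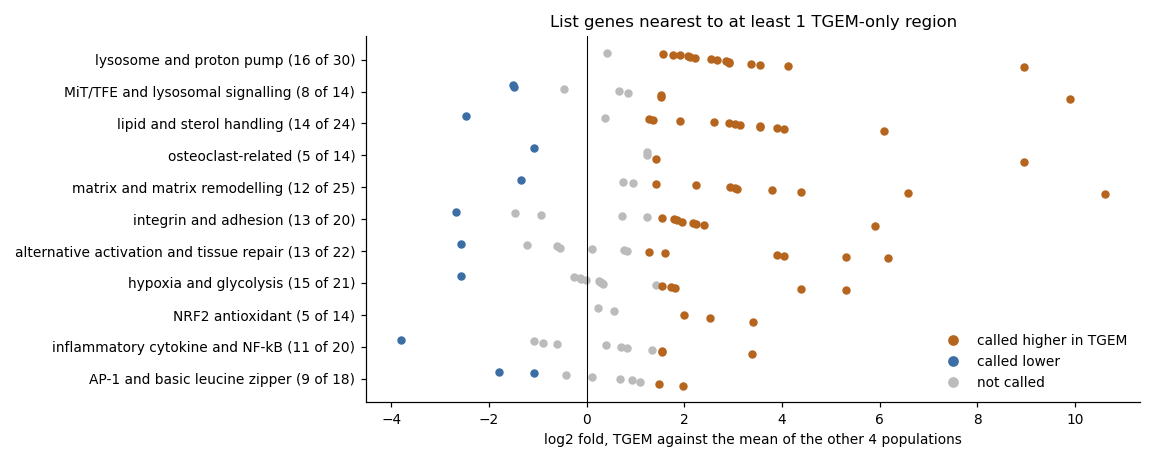
Log2 fold of TGEM against the mean of the other 4 populations for list genes that were nearest to at least 1 TGEM-only region, 1 point per tested gene; numbers beside the names give members with a region of all members. In the lysosome list 15 of 16 points are called higher and none lower, while the hypoxia, inflammatory and AP-1 lists spread on both sides of 0.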

How the data were processed

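ChIP-seq lists of H3K27ac, PU.1 and H3K4me2 and RNA-seq of 5 C57BL6/J macrophage populations were used as deposited. Per the submitters' processing notes, Bowtie, STAR, HOMER and mm10 were used; no version or strand setting is stated, so reads of a gene and of an overlapping or antisense neighbour may be mixed. Each deposited region or peak carries a score, made by the authors' peak caller and used only to describe or rank entries within a list. Per the file headers, the expression signal is reads per gene scaled by the authors to 10000000 mapped reads. Whole reads were recovered from it, since 100% of the low values tested in each of the 10 libraries were within 0.1 of a whole read.

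Overlaps of 1 bp were found in Python 3.11.15 with numpy 2.4.6 and pandas 2.3.3. Shares carry exact Clopper-Pearson 95% intervals (scipy 1.17.1), which cover counting error only. Regions went to the nearest transcription start of the expression tables, within 100 kb of the region's centre. Log2(value + 1) was fitted with limma 3.58.1 (R 4.3.3) using its mean-variance trend on genes that reached 1 in at least 1 library, 1 entry per symbol, with 5 populations and the deposited table as a block, which left 4 residual degrees of freedom. The first table holds polyA libraries and the second Ribozero libraries of LPM, SPM and microglia and second libraries of TGEM and BMDM, and samples in 1 table deviated together only in part (correlations −0.07 to 0.71). Folds are on the log2(value + 1) scale and understate changes of low genes. Count tests had been planned for raw counts. As the values are scaled, edgeR 4.0.16 and DESeq2 1.42.0 on recovered reads were alternatives, beside other pseudocounts, no filter, quantile normalization, no block, leaving out each library, and other overlap and score limits. The limma fit was also run on simulated counts with planted folds. Those counts had no table effect and no difference in RNA selection, so they do not test the fit under these conditions.

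Members and gene lists were chosen with earlier results of these data known. Named genes were the 15 largest called increases and 5 largest called falls among nearest genes in each contrast, the genes with the most regions and those nearest to the strongest and widest regions, list members, and Spi1. Genes of the printed promoters and those named as exceptions were chosen after their values were seen. Planned motif windows at PU.1 peaks were not run; promoter windows from RefSeq GRCm38.p6 were searched in their place.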

Additional observations from a re-analysis of the deposited data

How the results depend on the processing

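The number and content of TGEM-only regions depended on how sharing was defined. There were 13696 when an overlap of at least 50% was required, 13256 without the BMDM list, 13496 against the BMDM list alone (chosen after seeing the data) and 995 among entries at or above the median score. The share with a TGEM PU.1 peak was 47.1% with the 50% overlap, 35.4% when a list within 1000 bp counted as sharing, 75.3% at or above the median score (shared regions 91.3%), 41.4% against BMDM alone, 17.1% for PU.1 peaks at or above their median score and 28.4% when the peak centre had to lie inside. For H3K4me2 it was 64.7%, 56.0%, 85.9% (shared 97.2%) and 62.9% under the first 4 of these settings. Each of these shares was below that of the shared regions under the same setting.

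Against the other 4 populations, leaving out 1 library gave 1184 to 2722 genes higher and 1831 to 2698 lower, and 10.7% to 19.1% of nearest genes higher and 11.6% to 17.8% lower. Without the replicate block the counts were 2096 and 2614. Against BMDM, 472 genes higher became 247 with a pseudocount of 0.1, 155 without the filter, 813 with edgeR, 1286 with DESeq2 and 66 to 493 with 1 library left out. The 675 lower became 143 without the filter, 425 without the replicate block, 1064 with DESeq2 and 41 to 522 with 1 library left out. Nearest genes numbered 724 for regions at or above the median score, of which 6.57% of those tested were higher than in BMDM. For all nearest genes that share was 2.30% with a pseudocount of 0.1, 1.34% without the filter, 6.48% with edgeR, 9.49% with DESeq2 and 0.783% to 3.44% with 1 library left out. The share lower was 0.996% without the filter, 3.40% without the block and 0.416% to 4.40% with 1 library left out. The causes of these moves were not tested. No called fold of a named gene changed sign, but the balance of higher to lower calls turned from lower to higher under several settings, furthest without TGEM replicate 1: to 2331 and 1831 against the other populations, and to 493 and 290 against BMDM (nearest genes 106 and 78). For named genes 1870 values kept their call or lack of one, 132 lost a call and 36 gained one. Direction was compared only for genes called in the main fit. Of the 31 named increases against the other populations 27 were kept in every setting, and of the 24 against BMDM 9. Of the named falls it was 10 of 14 and 2 of 9.

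With 1 library per mark and population, the regions have no replicate check. Most TGEM-only regions sit near the lowest score listed, and entries of other populations just under their list's limit would count as absent. TGEM replicate 2 and SPM replicate 1, the shallowest libraries, limit low genes.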
